A study of Homo sapiens with 60 samples.

Results

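The genes described here are 39 genes of DNA replication and of the step from G1 into S phase, chosen by name from the 42141 rows of the deposited RNAseq table. They fall by role into 11 genes of origin licensing, 6 of helicase activation, 14 of the replication fork, 4 of nucleotide synthesis and 4 regulators of G1/S. All 39 were detected and entered the test. The RNAseq compared 5 lines of HEK293-EBNA1-6E cells, a human embryonic kidney line which expresses EBNA1 of the Epstein-Barr virus. In ALG6-/- cells the glucosyltransferase that starts glucosylation of the N-glycan precursor was knocked out. UGGT1 and its paralog UGGT2 put a glucose back on misfolded glycoproteins in the endoplasmic reticulum. Besides ALG6, the ALG6/UGGT1-/- line lacks the first of them, the ALG6/UGGT2-/- line the second and the ALG6/UGGT1/UGGT2-/- line both. WT cells are the unedited parental line. Each line gave 3 biological replicates after 48 h of culture, and each library was poly(A) mRNA. The knockout lines were made with CRISPR/Cas9 and grown from colonies of single cells, with 1 line sequenced per genotype, so an effect of the clone and one of the genotype cannot be told apart. The labels call the replicates biological, so p-values measure the spread between cultures within a line, pooled over the 5 lines.

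A cell copies its DNA once per cycle. In G1 the origin recognition complex, CDC6 and CDT1 load the MCM2-7 ring, the inactive helicase, onto origins, and geminin (GMNN) holds CDT1 back once S phase has begun. CDC45 and the GINS complex then turn the ring into an active helicase, DNA polymerases copy both strands with the sliding clamp PCNA, and ribonucleotide reductase and thymidylate synthase supply the nucleotides. Transcription of most of these genes rises late in G1 through the E2F factors, which the retinoblastoma protein otherwise holds inactive. HEK293 cells express the adenovirus protein E1A, which binds the retinoblastoma protein and releases E2F.

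The promoters were searched for E2F sites. RefSeq promoter windows (GRCh38.p14, 250 bases before to 50 bases after each gene's start) were matched for 34 of the 39 genes and not for MCM4, MCM5, GINS4, RPA2 and CCNE2. An E2F site, counted as TTTCCCGC, TTTCGCGC, TTTGCCGC or TTTGGCGC on either strand, lay in 18 of the 34 windows (52.9%), against 908 of all 27305 windows (3.33%). The CCAAT box (CCAAT on either strand) lay in 58.8% of the 34 windows, against 35.7% of all. The CHR element of mitotic genes (TTTGAA or TTCGAA on either strand) lay in 5.88%, against 16.6% of all. By role, the E2F site lay in 6 of 9 windows of origin licensing, 3 of 5 of helicase activation, 6 of 13 of the replication fork, 1 of 4 of nucleotide synthesis and 2 of 3 of the G1/S regulators. Such a match describes letters in a window and is not a measured binding site. The 39 genes were chosen as E2F-driven genes, so their larger share of E2F sites is a description and not a test. No windows matched for GC content were compared. Below are 6 windows of genes to which the results return, 5′ to 3′ along the gene's strand, with E2F matches in capitals. They are CDT1 at chr16:88803539-88803838 (plus strand), E2F1 at chr20:33686336-33686635 (minus strand), LIG1 at chr19:48170295-48170594 (minus strand), PCNA at chr20:5126573-5126872 (minus strand), POLA2 at chr11:65261712-65262011 (plus strand) and RRM2 at chr2:10122489-10122788 (plus strand), the last shown because it holds no match.
CDT1: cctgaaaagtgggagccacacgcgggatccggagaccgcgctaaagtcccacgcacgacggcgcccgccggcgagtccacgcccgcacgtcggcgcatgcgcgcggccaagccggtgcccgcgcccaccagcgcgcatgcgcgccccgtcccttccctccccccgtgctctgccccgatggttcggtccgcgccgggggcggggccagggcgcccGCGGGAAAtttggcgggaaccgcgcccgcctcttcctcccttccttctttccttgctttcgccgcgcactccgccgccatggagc
E2F1: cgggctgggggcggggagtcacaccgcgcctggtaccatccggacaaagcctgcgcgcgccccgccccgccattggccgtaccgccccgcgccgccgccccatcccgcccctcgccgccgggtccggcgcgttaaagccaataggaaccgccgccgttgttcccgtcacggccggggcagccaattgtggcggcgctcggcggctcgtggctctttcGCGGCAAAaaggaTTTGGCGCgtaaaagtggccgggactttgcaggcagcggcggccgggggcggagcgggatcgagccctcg
LIG1: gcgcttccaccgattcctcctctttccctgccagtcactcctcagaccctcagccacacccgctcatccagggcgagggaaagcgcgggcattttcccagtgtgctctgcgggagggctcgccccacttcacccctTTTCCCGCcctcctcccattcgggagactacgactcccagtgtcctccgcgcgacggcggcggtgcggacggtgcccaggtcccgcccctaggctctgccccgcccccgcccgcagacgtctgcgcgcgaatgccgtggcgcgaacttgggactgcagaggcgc
PCNA: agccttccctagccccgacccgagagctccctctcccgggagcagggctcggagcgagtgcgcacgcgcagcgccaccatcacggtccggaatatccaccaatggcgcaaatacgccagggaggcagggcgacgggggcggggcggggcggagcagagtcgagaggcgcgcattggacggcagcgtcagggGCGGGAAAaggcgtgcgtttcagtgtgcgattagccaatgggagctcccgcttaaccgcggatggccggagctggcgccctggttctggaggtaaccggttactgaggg
POLA2: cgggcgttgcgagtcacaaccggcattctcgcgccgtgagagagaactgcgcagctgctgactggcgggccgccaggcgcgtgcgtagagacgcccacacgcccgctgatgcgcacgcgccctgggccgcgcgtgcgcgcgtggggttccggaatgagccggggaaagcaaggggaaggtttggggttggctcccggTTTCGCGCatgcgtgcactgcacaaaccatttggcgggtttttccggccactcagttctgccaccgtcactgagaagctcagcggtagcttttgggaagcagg
RRM2: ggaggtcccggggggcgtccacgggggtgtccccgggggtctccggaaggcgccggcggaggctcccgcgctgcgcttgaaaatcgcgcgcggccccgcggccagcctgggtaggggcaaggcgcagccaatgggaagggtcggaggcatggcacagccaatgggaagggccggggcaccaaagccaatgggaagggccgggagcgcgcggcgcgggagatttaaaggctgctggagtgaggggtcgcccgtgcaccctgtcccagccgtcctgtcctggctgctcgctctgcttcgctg

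The values were CPM as deposited (reads of a gene per 1000000 reads of the library), and 1 CPM stood for 23.6 to 27.2 estimated reads in the 15 libraries. ALG6 mRNA lay between 1.03 and 5.87 CPM in the 12 libraries of the knockout lines, against 12.7 to 15.6 CPM in WT cells. UGGT1 mRNA lay between 18.0 and 33.1 CPM in the lines lacking it, against 13.1 to 83.9 CPM in the other lines. That overlap came from ALG6-/- cells alone. WT (43.1 to 79.8 CPM) and ALG6/UGGT2-/- cells (59.5 to 77.6 CPM) lay above every library lacking UGGT1. UGGT2 mRNA lay between 11.2 and 17.8 CPM in the lines lacking it, against 7.50 to 22.8 CPM in the other lines. Neither of these mRNA levels separates its knockouts from all the other lines. Of 7 markers of HEK293 cells, 6 had a mean of at least 1 CPM in every line, and their summed CPM lay between 1336 and 1342 (ALG6-/-), 641 and 665 (ALG6/UGGT1-/-), 920 and 993 (ALG6/UGGT2-/-), 1500 and 1584 (ALG6/UGGT1/UGGT2-/-) and 820 and 870 (WT). Of 12 markers of other cell types, 2 or 3 had, 3 to 5 were at 0 in all libraries of a line, and their summed CPM lay between 75.5 and 79.5 (ALG6-/-), 54.5 and 59.1 (ALG6/UGGT1-/-), 48.8 and 52.5 (ALG6/UGGT2-/-), 57.6 and 62.4 (ALG6/UGGT1/UGGT2-/-) and 41.9 and 60.6 (WT), and their part in the results was not tested. The ALG6-/- libraries stood apart from the rest, with median ratios to the geometric mean of all libraries of 0.915, 0.672 and 0.793, as did WT replicate 3 with 0.949 beside 1.15 and 1.13 for the other WT libraries. Replicate 1 was also the lowest in ALG6/UGGT1-/- (1.04 beside 1.17 and 1.17) and in ALG6/UGGT2-/- cells (1.00 beside 1.12 and 1.14).

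Differences were tested with limma on log2(CPM + 0.5) in 1 fit over all 15 libraries and 14692 genes, p-values adjusted over all of these genes, and 0.05 as the threshold for a call. The 4 comparisons against WT share the WT libraries, and the 3 comparisons of multiple knockout lines with ALG6-/- cells share the ALG6-/- libraries. A lower mRNA level in these bulk libraries may mean fewer cells in S phase or less mRNA per cell, which cannot be told apart. No gene was called in the same direction against WT in all 4 knockout lines, nor in all 3 multiple knockout lines. In 7 genes the direction against WT turned between lines, and MCM2 and GINS2 were called in none of the 7 comparisons. The shares of all genes tested with such patterns were not counted, so these counts only describe the 39 genes. An F test over the 5 lines passed in 36 of the 39 genes, beside 81.2% of all genes tested.

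**Figure D1:**
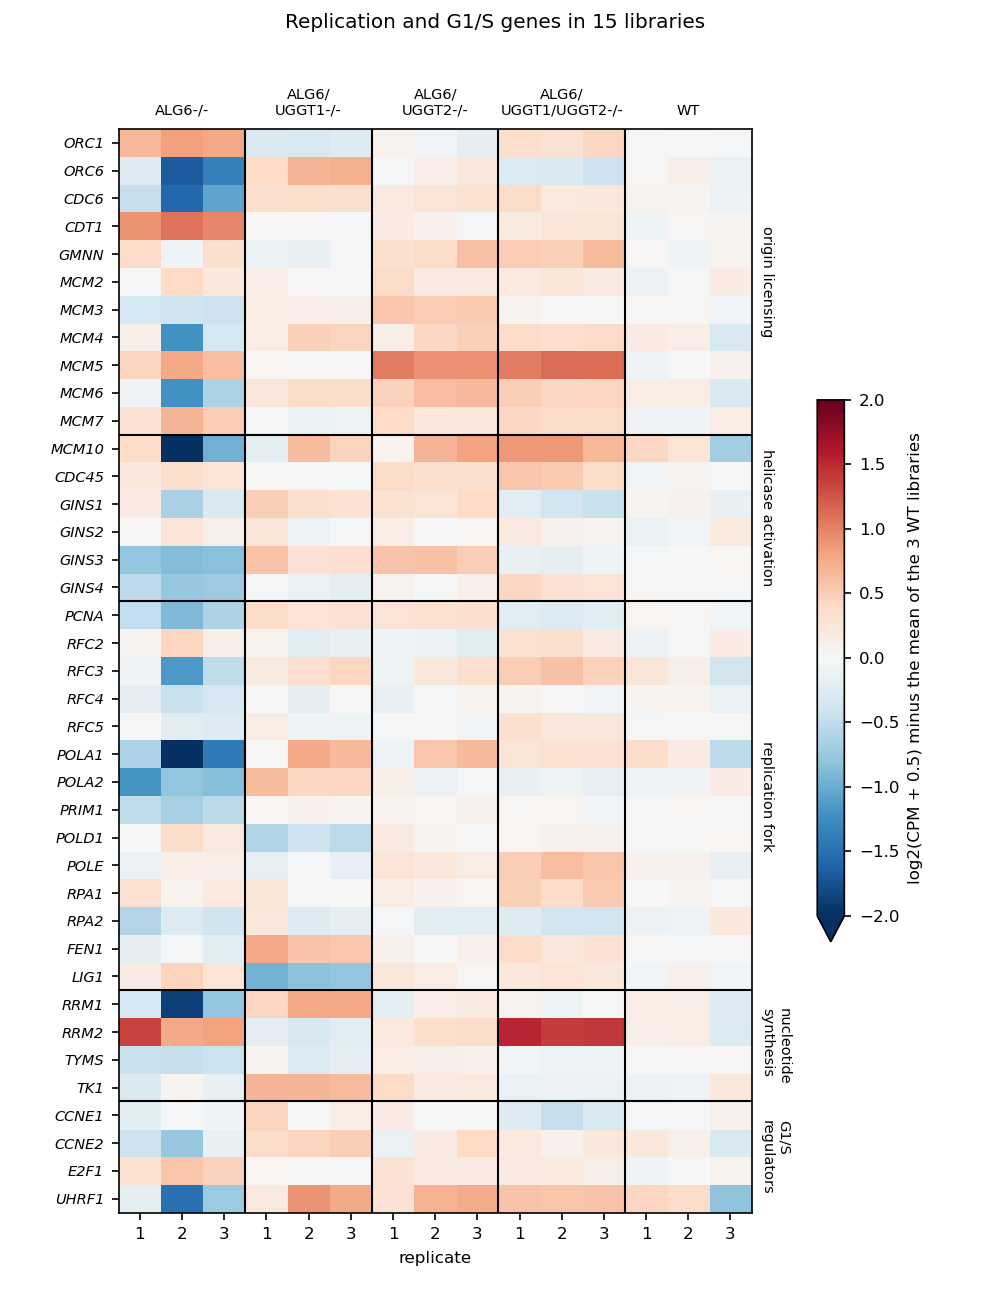
Log2(CPM + 0.5) of the 39 genes (rows, grouped by role) in the 15 libraries (columns, 3 replicates per line), each value minus the mean of the 3 WT libraries of that gene; the color scale ends at -2 and 2. MCM10 and POLA1 pass the end of the scale in ALG6-/- replicate 2, while CDT1 is high in all 3 ALG6-/- libraries and MCM5 in all libraries of the ALG6-/- line and both lines lacking UGGT2.

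In ALG6-/- against WT cells the 39 genes split. Of the 39, 8 were higher (20.5%, beside 15.1% of all genes tested) and 15 were lower (38.5%, beside 45.7% of all). The 8 higher genes were ORC1, CDT1, MCM5 and MCM7 of origin licensing, the helicase factor CDC45, the ligase LIG1, the reductase subunit RRM2 and the transcription factor E2F1. The 15 lower genes were ORC6, CDC6, MCM3 and MCM6; GINS3 and GINS4; PCNA, RFC3, RFC4, POLA1, POLA2, PRIM1 and RPA2 at the fork; and RRM1 and TYMS. The median log2 fold change was -0.25 over the 39 genes and -0.44 over all genes. Rescaling each library by its median ratio, which brought the median of all genes to -0.03, gave 15 higher and 5 lower genes (27.2% and 25% of all genes), and removing the trend with transcript length and GC content (the length and GC correction) gave 18 higher and 10 lower (32.6% and 29% of all genes). All 8 higher genes remained higher under both, whereas 5 of the 15 lower genes remained lower under the first and 9 under the second.

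In ALG6/UGGT1-/- against WT cells 6 of the 39 genes were higher (15.4%, beside 10.3% of all genes) and 3 were lower (7.69%, beside 13.8%). The higher genes were MCM3, GINS3, PCNA, POLA2, FEN1, the nuclease that trims Okazaki fragments, and thymidine kinase TK1. The lower genes were ORC1, POLD1, the catalytic subunit of DNA polymerase delta, and LIG1. Median ratio rescaling left FEN1 higher and POLD1 and LIG1 lower (7.34% and 8.15% of all genes), and the length and GC correction gave 9 higher and 4 lower (16.7% and 17.8%).

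Of the 39 genes, 6 were higher in ALG6/UGGT2-/- against WT cells (15.4%, beside 6.14% of all genes): GMNN, MCM3, MCM5, CDC45, GINS3 and PCNA. None was lower by the adjusted limma test (0%, beside 7.75% of all), and none at an unadjusted p under 0.05 either, where 12 were higher. Leaving out both ALG6-/- replicate 2 and WT replicate 3 raised the count of higher genes to 11, when 7.62% of all genes were higher. The length and GC correction raised it to 13, when 12.7% of all genes were higher and 11.4% lower. Median ratio rescaling lowered it to 4 (3 of them among the 6), when 3.34% of all genes were higher and 3.48% lower. With 1 library left out it lay between 4 and 9.

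In ALG6/UGGT1/UGGT2-/- against WT cells 13 genes were higher (33.3%, beside 13.5% of all genes) and 2 were lower (5.13%, beside 22% of all). The 13 were ORC1, CDT1, GMNN, MCM5 and MCM7; CDC45 and GINS4; RFC5, a clamp loader subunit, POLE, the catalytic subunit of DNA polymerase epsilon, RPA1, which coats single-stranded DNA, FEN1 and LIG1; and RRM2. The lower genes were PCNA and CCNE1, which encodes cyclin E1. The median log2 fold change was 0.23 over the 39 genes and -0.03 over all genes. With median ratio rescaling 9 genes were higher and none lower (13.3% and 14.8% of all genes), and with the length and GC correction 19 were higher and none lower (25.9% and 22.9%). The 2 lower calls were marginal: none was left without any 1 of the 3 ALG6/UGGT1/UGGT2-/- libraries, WT replicate 1 or WT replicate 2, while the log2 fold change of PCNA then stayed between -0.25 and -0.22, beside -0.24 with all libraries.

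Grouped by role, the calls were spread as follows. In ALG6-/- against WT cells origin licensing had 4 genes higher and 4 lower of 11 (median log2 fold change 0.19), helicase activation 1 higher and 2 lower of 6 (-0.46), the replication fork 1 higher and 7 lower of 14 (-0.24), nucleotide synthesis 1 higher and 2 lower of 4 (-0.29) and the G1/S regulators 1 higher of 4 (-0.28). Of all genes 15.1% were higher and 45.7% lower there, with a median of -0.44. Median ratio rescaling gave 6 higher and 2 lower in origin licensing, 2 and 1 in helicase activation and 5 and 1 at the fork. It gave 1 and 1 in nucleotide synthesis and 1 higher among the regulators, beside 27.2% and 25% of all genes. In ALG6/UGGT1/UGGT2-/- against WT cells origin licensing had 5 higher of 11 (0.36), helicase activation 2 higher of 6 (0.22), the fork 5 higher and 1 lower of 14 (0.24), nucleotide synthesis 1 higher of 4 (-0.04) and the regulators 1 lower of 4 (0.17). Of all genes 13.5% were higher and 22% lower there, with a median of -0.03. With median ratio rescaling 3 licensing, 2 helicase, 3 fork and 1 nucleotide synthesis genes were higher and none lower, beside 13.3% and 14.8% of all genes. Summed over the 39 genes, the CPM of a library lay between 6125 and 6531 (ALG6-/-), 6456 and 6625 (ALG6/UGGT1-/-), 7247 and 7547 (ALG6/UGGT2-/-), 7215 and 7331 (ALG6/UGGT1/UGGT2-/-) and 6037 and 6144 (WT). In the deposited CPM the sums of ALG6/UGGT2-/- and ALG6/UGGT1/UGGT2-/- cells lay above those of all other libraries. MCM2, MCM3 and MCM7, the genes with the highest means in every line, weigh most in these sums. The sums were not made after rescaling, and the median ratios given above were lowest in ALG6-/- cells, so this order may depend on the scaling.

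**Figure D2:**
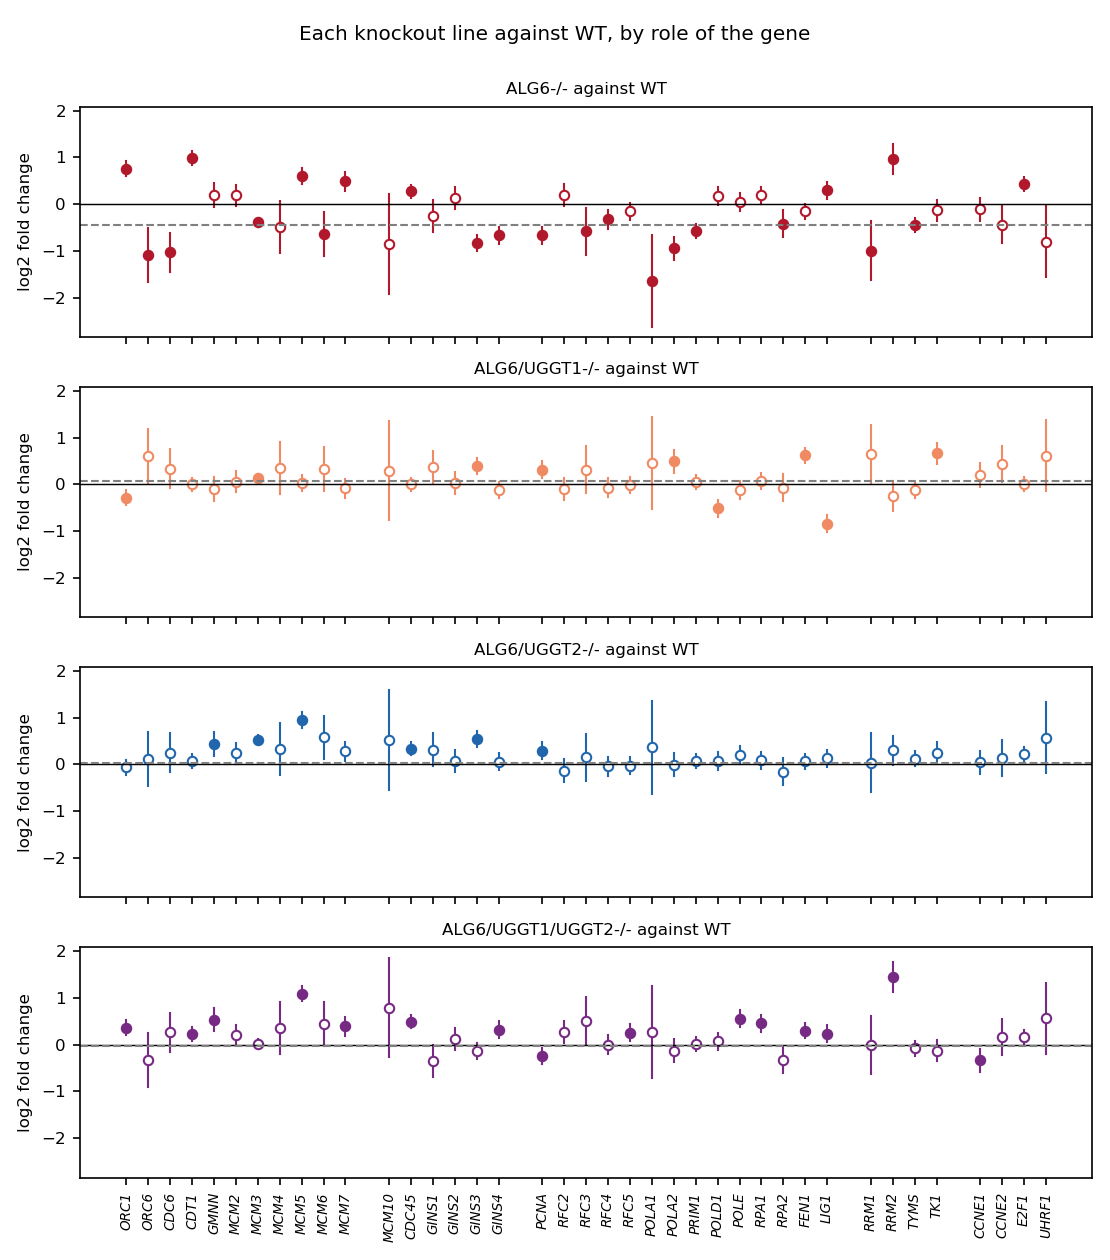
Log2 fold change of the 39 genes, grouped by role along the horizontal axis, in each knockout line against WT (1 panel per line), with 95% intervals from limma; filled points were called at an adjusted p under 0.05, and the dashed line is the median of all genes tested. The calls split into 8 higher and 15 lower in ALG6-/- cells and into 13 higher and 2 lower in ALG6/UGGT1/UGGT2-/- cells.

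Against ALG6-/- cells most of the 39 genes were higher in the multiple knockout lines, beside medians of all genes of 0.52 in ALG6/UGGT1-/-, 0.46 in ALG6/UGGT2-/- and 0.36 in ALG6/UGGT1/UGGT2-/- cells. In ALG6/UGGT1-/- cells 22 were higher (56.4%, beside 53.1% of all genes) and 11 lower (28.2%, beside 20.4%). The ALG6/UGGT2-/- line had 22 higher (56.4%, beside 48.6%) and 5 lower (12.8%, beside 18.8%). In ALG6/UGGT1/UGGT2-/- cells 26 were higher (66.7%, beside 43.5%) and 3 lower (7.69%, beside 17.6%). ORC1, CDT1 and E2F1 were lower than in ALG6-/- cells in all 3 lines, and remained so under median ratio rescaling and the length and GC correction. The higher calls depended on the scaling. Median ratio rescaling gave 11 higher and 16 lower in ALG6/UGGT1-/- (33.8% and 32.8% of all genes), 10 and 11 in ALG6/UGGT2-/- (30.1% and 30.6%) and 9 and 7 in ALG6/UGGT1/UGGT2-/- cells (26.2% and 27.7%). The length and GC correction gave 11 and 18 in ALG6/UGGT1-/- (34% and 37.2% of all genes), 13 and 14 in ALG6/UGGT2-/- (32.4% and 35.8%) and 18 and 6 in ALG6/UGGT1/UGGT2-/- cells (29.6% and 31%). In ALG6/UGGT2-/- cells the 5 lower calls became 8 without ALG6-/- replicate 1 and 3 without ALG6-/- replicate 2.

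**Figure D3:**
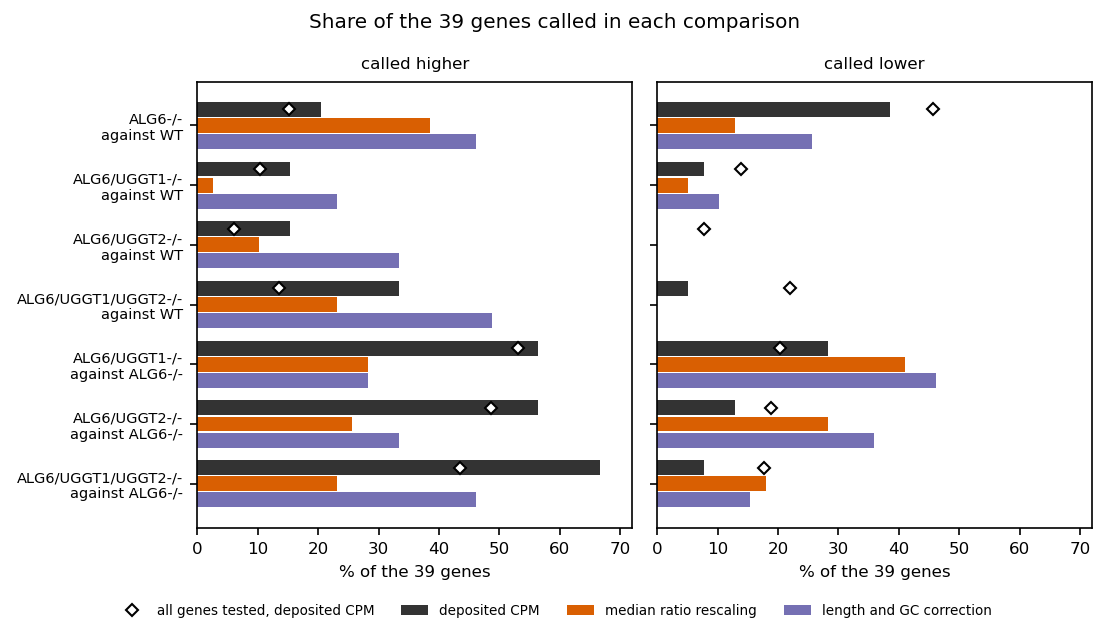
Share of the 39 genes (horizontal axis, %) called higher (left) or lower (right) in each of the 7 comparisons with the deposited CPM, after median ratio rescaling and after the length and GC correction; diamonds give the share of all genes tested with the deposited CPM. In ALG6/UGGT1/UGGT2-/- against WT cells 33.3% were higher beside 13.5% of all genes, and in ALG6-/- against WT cells the order of higher and lower turned with rescaling.

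Among the licensing genes CDT1, the factor that brings the MCM ring to the origin, had CPM values of 294, 337 and 311 (ALG6-/-), 161, 159.9 and 154 (ALG6/UGGT1-/-), 177, 169 and 155 (ALG6/UGGT2-/-), 182, 189 and 187 (ALG6/UGGT1/UGGT2-/-) and 149, 162 and 165 (WT). Every ALG6-/- library lay above every other library, and the ALG6/UGGT1-/- and ALG6/UGGT2-/- values overlapped those of WT, although the length and GC correction called both higher (0.12 and 0.16 on the log2 scale). The log2 fold change against WT was 0.98 in ALG6-/- cells (standard error, SE, 0.07, limma adjusted p = 1.98e-07), which is 1.42 above the median of all genes. The ALG6/UGGT1/UGGT2-/- line was at 0.23 (limma adjusted p = 0.0159), a call lost with median ratio rescaling (limma adjusted p = 0.199) and without ALG6/UGGT1/UGGT2-/- replicate 2 (adjusted p = 0.056), ALG6/UGGT1/UGGT2-/- replicate 3 (0.0503) or WT replicate 1 (0.07).

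MCM5, a subunit of the ring, had CPM values of 246, 308 and 277 (ALG6-/-), 186, 185 and 181 (ALG6/UGGT1-/-), 372, 339.9 and 341 (ALG6/UGGT2-/-), 373, 395 and 393 (ALG6/UGGT1/UGGT2-/-) and 171, 180.4 and 192 (WT). The ALG6/UGGT1-/- libraries overlapped with WT, and those of the other 3 knockout lines all lay above WT. Its log2 fold change against WT was 0.61 in ALG6-/- cells (limma adjusted p = 3.1e-05), 0.95 in ALG6/UGGT2-/- cells (6.75e-06) and 1.09 in ALG6/UGGT1/UGGT2-/- cells (6.89e-07), with an SE of 0.08 each, and 0.02 in ALG6/UGGT1-/- cells (adjusted p = 0.855). Against ALG6-/- cells MCM5 was lower in ALG6/UGGT1-/- cells (log2 fold change -0.58, limma adjusted p = 2.6e-05). Its rises over ALG6-/- cells did not pass with median ratio rescaling: in the ALG6/UGGT1/UGGT2-/- line 0.49 became 0.10, and in the ALG6/UGGT2-/- line the value (0.34, limma adjusted p = 0.00177) turned to -0.12.

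MCM3, another ring subunit, had CPM values of 462, 448 and 446 (ALG6-/-), 656, 650.0 and 645 (ALG6/UGGT1-/-), 875, 841 and 855 (ALG6/UGGT2-/-), 618, 596 and 593 (ALG6/UGGT1/UGGT2-/-) and 602, 604 and 573 (WT). The ALG6/UGGT2-/- libraries lay above all others, the ALG6-/- libraries below all others, and ALG6/UGGT1/UGGT2-/- and WT overlapped. The log2 fold change in ALG6/UGGT2-/- against WT cells was 0.53 (SE 0.04, limma adjusted p = 6.5e-06). In ALG6-/- cells it was -0.39 (limma adjusted p = 8.5e-06), which became 0.06 with median ratio rescaling. The small rise in ALG6/UGGT1-/- cells (0.13, limma adjusted p = 0.0375) was lost with median ratio rescaling (0.07) and when any 1 of 12 libraries was left out, with adjusted p-values from 0.0504 without ALG6/UGGT1/UGGT2-/- replicate 1 to 0.0957 without WT replicate 3.

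Per kilobase of transcript the 6 ring subunits, which the ring holds in equal numbers, differed widely in mRNA level. MCM7 had the highest level, at 467 ± 62.9 CPM per kb in ALG6-/- cells, 312 ± 13.5 in ALG6/UGGT1-/-, 403 ± 29.6 in ALG6/UGGT2-/- and 436 ± 3.66 in ALG6/UGGT1/UGGT2-/- cells, against 332 ± 31.6 CPM per kb in WT cells (SD, n = 3 each). MCM6 was at 24.5 ± 9.52, 45.6 ± 2.73, 54.2 ± 3.81 and 49.4 ± 1.39 CPM per kb in the same 4 knockout lines in that order, against 36.6 ± 6.23 in WT cells (SD, n = 3 each). MCM4 lay next to it, at 41.7 ± 7.34 CPM per kb in WT cells, a difference from MCM6 within their spread. MCM5 stood well above MCM4 in the ALG6/UGGT1/UGGT2-/- line, at 112 ± 3.55 beside 52.9 ± 0.946 CPM per kb, and level with it in the ALG6/UGGT1-/- line, at 53.2 ± 0.737 beside 53.2 ± 6.35 CPM per kb (SD, n = 3 each).

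Of the helicase activation genes, GINS3, a subunit of the GINS complex, was called in opposite directions in different lines. It had CPM values of 23.6, 22.2 and 22.7 (ALG6-/-), 61.4, 50.1 and 51.9 (ALG6/UGGT1-/-), 61.3, 61.5 and 57.7 (ALG6/UGGT2-/-), 37.0, 35.8 and 38.6 (ALG6/UGGT1/UGGT2-/-) and 40.2, 40.7 and 41.9 (WT). None of these knockout groups overlapped with WT. Its log2 fold change against WT was -0.83 in ALG6-/- cells (limma adjusted p = 2.91e-06), 0.40 in ALG6/UGGT1-/- cells (0.00269), 0.55 in ALG6/UGGT2-/- cells (0.0006) and -0.14 in ALG6/UGGT1/UGGT2-/- cells (0.202), with an SE of 0.08 each; the rise in ALG6/UGGT1-/- cells did not pass with median ratio rescaling (0.34). Against ALG6-/- cells the rise in ALG6/UGGT2-/- cells was 1.38 (limma adjusted p = 2.79e-08), which is 0.92 above the median of all genes.

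CDC45, which joins the MCM ring and GINS in the active helicase, had CPM values of 81.2, 89.3 and 84.7 (ALG6-/-), 70.9, 69.4 and 70.2 (ALG6/UGGT1-/-), 91.4, 87.5 and 87.6 (ALG6/UGGT2-/-), 103, 101 and 91.9 (ALG6/UGGT1/UGGT2-/-) and 67.3, 72.7 and 70.3 (WT). As for MCM5, the ALG6/UGGT1-/- libraries overlapped with WT and those of the other 3 lines lay above it. The log2 fold change against WT was 0.28 in ALG6-/- cells (limma adjusted p = 0.00227), 0.34 in ALG6/UGGT2-/- cells (0.00307) and 0.49 in ALG6/UGGT1/UGGT2-/- cells (6.14e-05), with an SE of 0.06 each; the second of these did not pass with median ratio rescaling (0.32). The rise in ALG6/UGGT1/UGGT2-/- over ALG6-/- cells (0.21, limma adjusted p = 0.0115) was lost without ALG6/UGGT1/UGGT2-/- replicate 1 (adjusted p = 0.0517) and turned to -0.17 with median ratio rescaling.

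GINS4, a partner of GINS3 in the same complex, had CPM values of 18.9, 16.0 and 16.4 (ALG6-/-), 26.6, 24.9 and 24.0 (ALG6/UGGT1-/-), 28.9, 27.6 and 29.3 (ALG6/UGGT2-/-), 36.5, 33.5 and 33.0 (ALG6/UGGT1/UGGT2-/-) and 27.9, 27.6 and 26.6 (WT). Where GINS3 did not pass the test, in ALG6/UGGT1/UGGT2-/- against WT cells, GINS4 was higher (log2 fold change 0.32, SE 0.08, limma adjusted p = 0.00816). Its fall in ALG6-/- cells (-0.67, limma adjusted p = 2.31e-05) did not pass with median ratio rescaling (-0.23) or the length and GC correction (-0.19). Per kilobase, GINS2 had the highest and GINS4 the lowest level of the 4 subunits in every line, at 38.0 ± 4.85 and 7.26 ± 0.186 CPM per kb in WT cells (SD, n = 3 each). MCM10, a further helicase factor chosen here after its values were seen, spread most between replicates of 1 line, at 36.1, 6.31 and 13.7 CPM in ALG6-/- cells.

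At the replication fork LIG1, the ligase that joins Okazaki fragments, had CPM values of 105, 128 and 113 (ALG6-/-), 48.5, 52.9 and 54.0 (ALG6/UGGT1-/-), 109, 104 and 95.2 (ALG6/UGGT2-/-), 108, 112 and 109 (ALG6/UGGT1/UGGT2-/-) and 90.3, 100.2 and 90.2 (WT). The ALG6/UGGT1-/- libraries lay below all other libraries. Its log2 fold change in ALG6/UGGT1-/- cells was -0.85 against WT (SE 0.08, limma adjusted p = 1.94e-05) and -1.14 against ALG6-/- cells (limma adjusted p = 1.42e-07). The rise in ALG6-/- over WT cells (0.30, limma adjusted p = 0.00853) did not pass without both ALG6-/- replicate 2 and WT replicate 3 (adjusted p = 0.0675). The rise in ALG6/UGGT1/UGGT2-/- cells (0.23, limma adjusted p = 0.0451) was lost with median ratio rescaling (0.29, limma adjusted p = 0.191) and when any 1 of 9 libraries was left out, with adjusted p-values from 0.0552 without ALG6/UGGT1-/- replicate 3 to 0.1285 without WT replicate 1.

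PCNA, the sliding clamp, had CPM values of 209.6, 161 and 193 (ALG6-/-), 385, 357 and 364 (ALG6/UGGT1-/-), 353, 365 and 373 (ALG6/UGGT2-/-), 254, 244 and 254 (ALG6/UGGT1/UGGT2-/-) and 306, 300.0 and 284 (WT). None of the 4 knockout groups overlapped with WT. The log2 fold change against WT was -0.67 in ALG6-/- cells (limma adjusted p = 2.15e-05), 0.31 in ALG6/UGGT1-/- cells (0.0138), 0.29 in ALG6/UGGT2-/- cells (0.0298) and -0.24 in ALG6/UGGT1/UGGT2-/- cells (0.0341), with an SE of 0.08 each. None of these 4 passed with median ratio rescaling, where the values were -0.22, 0.25, 0.28 and -0.18. The call in ALG6/UGGT2-/- cells was also lost without any 1 of its own or the WT libraries (adjusted p 0.0517 without ALG6/UGGT2-/- replicate 1 to 0.105 without ALG6/UGGT2-/- replicate 3), and that in ALG6/UGGT1/UGGT2-/- cells without any 1 of its own libraries or WT replicates 1 or 2 (0.0692 without ALG6/UGGT1/UGGT2-/- replicate 1 to 0.105 without ALG6/UGGT1/UGGT2-/- replicate 2).

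POLA2, the accessory subunit of the polymerase alpha-primase that starts each fragment, had CPM values of 41.2, 54.4 and 52.1 (ALG6-/-), 148, 127 and 127 (ALG6/UGGT1-/-), 103, 87.0 and 92.6 (ALG6/UGGT2-/-), 85.6, 87.9 and 84.7 (ALG6/UGGT1/UGGT2-/-) and 88.1, 90.2 and 107 (WT). The ALG6-/- libraries were lowest and the ALG6/UGGT1-/- libraries highest of all. Its log2 fold change against WT was -0.95 in ALG6-/- cells (SE 0.11, limma adjusted p = 1.92e-05) and 0.49 in ALG6/UGGT1-/- cells (limma adjusted p = 0.00723). Neither passed with median ratio rescaling (-0.50 and 0.43), and both passed with the length and GC correction (-0.68 and 0.53). Between these lines the log2 fold change in ALG6/UGGT1-/- against ALG6-/- cells was 1.44 (limma adjusted p = 2.9e-07), which is 0.92 above the median of all genes. The catalytic subunit of the same enzyme, POLA1, and its primase subunit PRIM1 were also called lower in ALG6-/- against WT cells. Both were called higher in all 3 multiple knockout lines against ALG6-/- cells. POLA1 kept and PRIM1 lost these calls with median ratio rescaling and with the length and GC correction. With that correction PRIM1 turned to 0.043 in ALG6-/- against WT cells. It also turned to -0.23 in ALG6/UGGT1-/- and -0.025 in ALG6/UGGT2-/- against ALG6-/- cells.

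**Figure D4:**
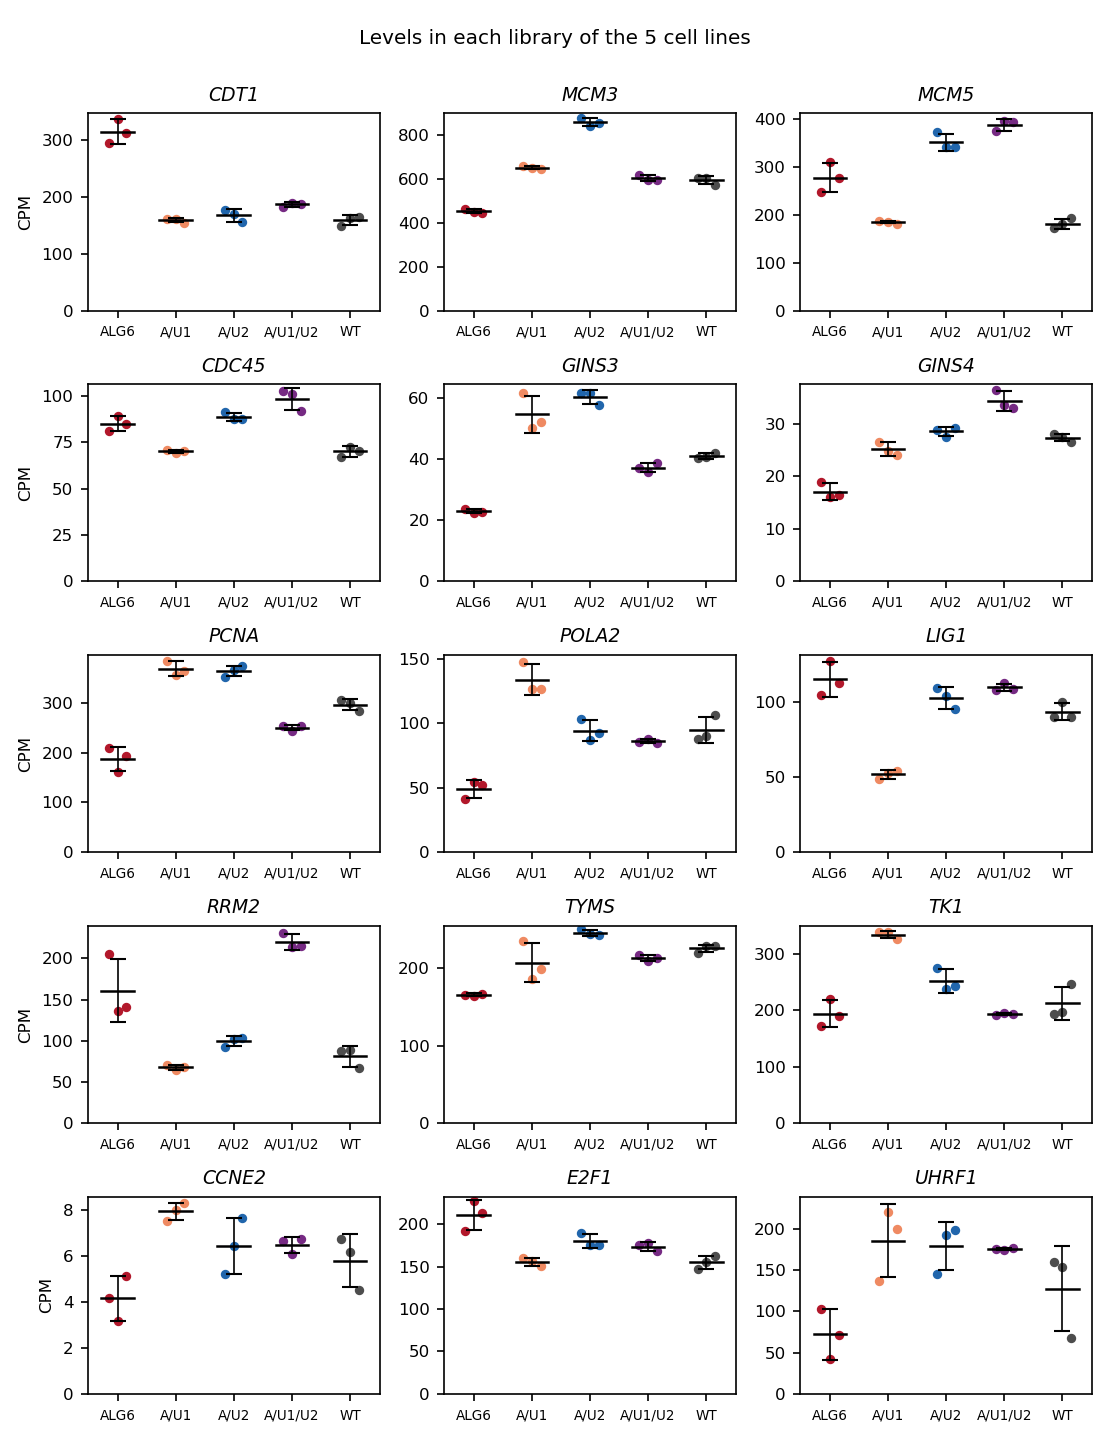
CPM (vertical axes, from 0) of 15 genes, 3 for each role from top to bottom, in the 3 libraries of each line (points), with the mean and SD (bars). A/U1 stands for ALG6/UGGT1-/-, A/U2 for ALG6/UGGT2-/- and A/U1/U2 for ALG6/UGGT1/UGGT2-/- cells, and ALG6 for ALG6-/- cells. CDT1 is highest in ALG6-/- cells (294 to 337 CPM), LIG1 lowest in ALG6/UGGT1-/- cells (48.5 to 54.0 CPM) and RRM2 highest in ALG6/UGGT1/UGGT2-/- cells (213 to 231 CPM).

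Of the nucleotide synthesis genes, RRM2, the small subunit of ribonucleotide reductase that is made mainly in S phase, had CPM values of 206, 137 and 141 (ALG6-/-), 70.1, 64.5 and 68.7 (ALG6/UGGT1-/-), 92.5, 102 and 103 (ALG6/UGGT2-/-), 231, 213 and 215 (ALG6/UGGT1/UGGT2-/-) and 87.8, 89.0 and 66.5 (WT). All ALG6-/- and ALG6/UGGT1/UGGT2-/- libraries lay above all libraries of the other 3 lines. The log2 fold change against WT was 0.97 in ALG6-/- cells (limma adjusted p = 0.000117) and 1.44 in ALG6/UGGT1/UGGT2-/- cells (9.88e-06), with an SE of 0.15 each, and -0.25 in ALG6/UGGT1-/- cells (adjusted p = 0.255). The higher level in ALG6/UGGT1/UGGT2-/- than in ALG6-/- cells (0.47, limma adjusted p = 0.0144) was lost without ALG6-/- replicate 2 (0.061) or ALG6-/- replicate 3 (0.0596), and was 0.09 with median ratio rescaling and -0.22 with the length and GC correction.

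Against its partner subunit RRM1, RRM2 changed places between lines. Per kilobase RRM2 was above RRM1 in ALG6-/- cells (49.4 ± 11.9 beside 20.4 ± 9.72 CPM per kb) and in ALG6/UGGT1/UGGT2-/- cells (67.5 ± 3.01 beside 37.3 ± 1.99). It was below RRM1 in ALG6/UGGT1-/- cells (20.8 ± 0.901 beside 59.1 ± 7.56 CPM per kb), in ALG6/UGGT2-/- cells (30.5 ± 1.86 beside 38.7 ± 5.20) and in WT cells (24.9 ± 3.89 beside 37.7 ± 5.69; SD, n = 3 each).

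TK1, the thymidine kinase of the salvage route, had CPM values of 172, 219.5 and 189 (ALG6-/-), 338, 337 and 326 (ALG6/UGGT1-/-), 275, 237 and 242 (ALG6/UGGT2-/-), 192, 194 and 194 (ALG6/UGGT1/UGGT2-/-) and 194, 197 and 245 (WT). The ALG6/UGGT1-/- libraries lay above all others, and the other 3 knockout lines overlapped with WT. Its log2 fold change in ALG6/UGGT1-/- against WT cells was 0.66 (SE 0.10, limma adjusted p = 0.000554), which was 0.60 and did not pass with median ratio rescaling and was 0.80 and passed with the length and GC correction. The ALG6/UGGT2-/- value was 0.25 and was not called (limma adjusted p = 0.137), but passed without WT replicate 3 (0.36, adjusted p = 0.0251) and with the length and GC correction (0.39).

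TYMS, thymidylate synthase of the route that makes thymidylate anew, had CPM values of 166, 164 and 167 (ALG6-/-), 236, 187 and 199.6 (ALG6/UGGT1-/-), 251, 245 and 243 (ALG6/UGGT2-/-), 217, 209 and 213 (ALG6/UGGT1/UGGT2-/-) and 220.3, 228 and 229 (WT). Unlike TK1, TYMS in ALG6/UGGT1-/- cells overlapped with WT, and only its fall in ALG6-/- cells passed among the comparisons with WT (log2 fold change -0.44, SE 0.07, limma adjusted p = 0.000191). That value lies -0.01 from the all-gene median, and it was 0.0034 with median ratio rescaling. In ALG6/UGGT1-/- against WT cells TYMS was not called (-0.13, limma adjusted p = 0.217) but passed without ALG6/UGGT1-/- replicate 1 (-0.23, adjusted p = 0.00906).

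Among the G1/S regulators E2F1, the transcription factor that drives this program and its own gene, had CPM values of 191, 227 and 213 (ALG6-/-), 159.8, 156 and 150.2 (ALG6/UGGT1-/-), 189.9, 175 and 175 (ALG6/UGGT2-/-), 175, 178 and 168 (ALG6/UGGT1/UGGT2-/-) and 147, 155 and 162 (WT). Every ALG6-/- library lay above every other library, and ALG6/UGGT1-/- overlapped with WT. The log2 fold change in ALG6-/- against WT cells was 0.44 (SE 0.07, limma adjusted p = 0.000165), which is 0.88 above the median of all genes. The ALG6/UGGT2-/- value was 0.22 (limma adjusted p = 0.0543) and in ALG6/UGGT1/UGGT2-/- cells 0.17 (0.0822), and neither was called with all libraries, although both passed without ALG6-/- replicate 1 (0.0238 and 0.0392) and the first also without ALG6-/- replicate 2 (0.0306) or WT replicate 3 (0.0463). With the length and GC correction both were called higher (0.30 and 0.27). Its fall in ALG6/UGGT2-/- against ALG6-/- cells (-0.22, limma adjusted p = 0.0128) was lost without ALG6-/- replicate 2 (0.0561).

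CCNE2, which encodes cyclin E2 and was the least abundant of the 39 genes, had CPM values of 4.16, 3.18 and 5.13 (ALG6-/-), 7.51, 7.99 and 8.27 (ALG6/UGGT1-/-), 5.20, 6.43 and 7.65 (ALG6/UGGT2-/-), 6.65, 6.07 and 6.71 (ALG6/UGGT1/UGGT2-/-) and 6.71, 6.14 and 4.51 (WT). Only the ALG6/UGGT1-/- libraries did not overlap with WT, and no line was called against WT. In ALG6-/- cells the log2 fold change of -0.44 (limma adjusted p = 0.0516) passed without ALG6-/- replicate 3 (0.0208), ALG6/UGGT2-/- replicate 1 (0.0439), ALG6/UGGT2-/- replicate 3 (0.0479) or WT replicate 3 (0.0136), and with the length and GC correction it turned to 0.21 and was called higher (limma adjusted p = 0.0389). Against ALG6-/- cells it was higher in ALG6/UGGT1-/- cells (0.88, limma adjusted p = 0.000894), ALG6/UGGT2-/- cells (0.58, 0.0131) and ALG6/UGGT1/UGGT2-/- cells (0.60, 0.0126). The call in ALG6/UGGT2-/- cells was lost without ALG6-/- replicate 2 (0.0589) or ALG6/UGGT2-/- replicate 3 (0.0642) and that in ALG6/UGGT1/UGGT2-/- cells without ALG6-/- replicate 2 (0.0546), and the values in ALG6/UGGT1-/- and ALG6/UGGT2-/- cells turned to -0.10 and -0.24 with the length and GC correction.

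UHRF1, which reads hemimethylated DNA behind the fork and brings in the maintenance methyltransferase, had CPM values of 103, 42.0 and 71.6 (ALG6-/-), 136, 221 and 200.5 (ALG6/UGGT1-/-), 145, 192 and 199 (ALG6/UGGT2-/-), 176, 175 and 177 (ALG6/UGGT1/UGGT2-/-) and 160.2, 154 and 67.8 (WT). WT replicate 3 lay within the ALG6-/- values and far below the other WT libraries. In ALG6-/- against WT cells the log2 fold change was -0.81 (SE 0.35) and was not called (limma adjusted p = 0.0613), but it was -1.21 without WT replicate 3 (adjusted p = 0.00503) and -1.11 without ALG6-/- replicate 1 (0.0145). UHRF1 was higher in all 3 multiple knockout lines than in ALG6-/- cells, with log2 fold changes of 1.42 in ALG6/UGGT1-/- (limma adjusted p = 0.00286), 1.38 in ALG6/UGGT2-/- (0.00384) and 1.37 in ALG6/UGGT1/UGGT2-/- cells (0.00525).

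The replicates of 1 line differed among the 39 genes in a common pattern. The range of log2(CPM + 0.5) over the 3 replicates exceeded 1 in 9 genes in ALG6-/- cells (ORC6, CDC6, MCM4, MCM6, MCM10, RFC3, POLA1, RRM1 and UHRF1), in 2 in WT cells and in none in the other lines. Its median over the 39 genes was 0.35 in ALG6-/- cells, 0.19 in ALG6/UGGT1-/-, 0.19 in ALG6/UGGT2-/- and 0.11 in ALG6/UGGT1/UGGT2-/- cells, against 0.21 in WT cells. These ranges were not counted over all genes tested, so they are not shown to be particular to the 39 genes. The difference of ALG6-/- replicate 2 from replicate 1 followed the GC content of the transcript (Spearman rho = 0.75 across the 39 genes and 0.67 across 13353 genes), with values of -0.20 and -0.49 for its length. The difference of WT replicate 3 from the mean of the other WT libraries had values of 0.56 and 0.48 for GC content and of -0.43 and -0.63 for length, and across the 39 genes these differences in the separate lines correlated at rho = 0.83. ALG6/UGGT1-/- replicate 1 and ALG6/UGGT2-/- replicate 1 shared this shift. Their deviations from the line means, over all genes tested, correlated at 0.70 and 0.79 with those of ALG6-/- replicate 2. With those of WT replicate 3 they correlated at 0.80 and 0.75. Both stayed in the fit without ALG6-/- replicate 2 and WT replicate 3. Over the 39 genes, the fold changes of ALG6-/- against WT cells had a rho of 0.49 with GC content and -0.14 with length, and those of ALG6/UGGT1/UGGT2-/- against WT cells 0.02 with GC content and 0.45 with length. These correlations are across genes that share their libraries, and genes are not independent replicates. The part of GC content and length in the calls was not tested beyond the correction given above.

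**Figure D5:**
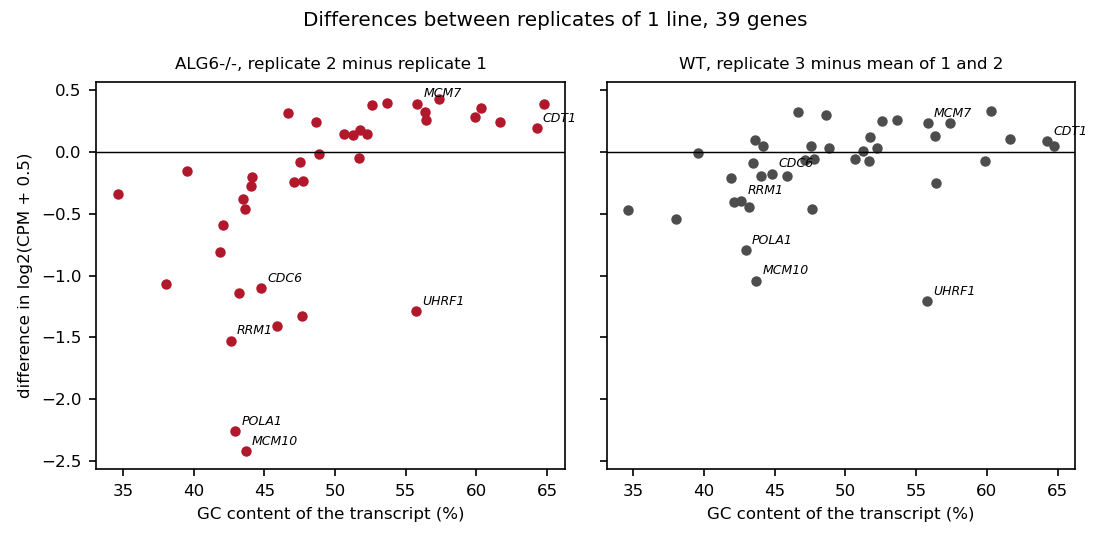
Difference in log2(CPM + 0.5) between replicates of 1 line (vertical axis) against the GC content of the transcript (horizontal axis, %) for the 39 genes, for ALG6-/- replicate 2 minus replicate 1 (left) and WT replicate 3 minus the mean of replicates 1 and 2 (right). MCM10 and POLA1 have the lowest values on the left, and UHRF1 lies below the other genes of its GC content in both panels.

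The E2F site of the promoter windows, printed above for CDT1, E2F1, LIG1, PCNA and POLA2, lay in genes called in both directions. Of the 18 genes with a site, 4 were higher and 9 lower in ALG6-/- against WT cells, beside 3 and 4 of the 16 genes without one. Of all genes tested, 15.1% were higher and 45.7% lower there. In ALG6/UGGT1/UGGT2-/- against WT cells 4 of the 18 were higher and 1 lower, beside 7 and 1 of the 16, and 13.5% and 22% of all genes. These counts are from the deposited CPM and were not made after rescaling. The difference between these sets was not tested.

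Beside the 39 genes, a list of 56 further replication, E2F and G1 genes was counted, to be read beside the shares of all genes given above for each comparison and setting. In ALG6-/- against WT cells 5 of the 56 were higher (8.93%, beside 15.1% of all genes) and 35 lower (62.5%, beside 45.7%), with a median of -0.61 (10 and 21 with median ratio rescaling, 15 and 24 after the length and GC correction). Against WT, 3 were higher and 4 lower in ALG6/UGGT1-/- cells (3 and 1, and 13 and 5, under the same settings), and 5 higher and 11 lower in ALG6/UGGT1/UGGT2-/- cells (8 and 5, and 15 and 13). In ALG6/UGGT2-/- cells none was called in either direction by the adjusted limma test with the deposited CPM. At an unadjusted p under 0.05, 4 were higher and 1 lower. Median ratio rescaling gave 3 higher and 0 lower there (3.34% and 3.48% of all genes). The length and GC correction gave 8 higher and 4 lower (12.7% and 11.4% of all genes).

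The 6 of these with the smallest F test p were CDKN2C, ORC4, ORC5, CHAF1B, E2F4 and POLE2. CDKN2C, which encodes the CDK4/6 inhibitor p18, was at 45.9 ± 2.81 CPM in ALG6-/- cells, 15.5 ± 1.41 in ALG6/UGGT1-/-, 21.8 ± 1.18 in ALG6/UGGT2-/- and 70.0 ± 2.04 CPM in ALG6/UGGT1/UGGT2-/- cells, against 22.4 ± 0.761 CPM in WT cells (SD, n = 3 each). Against WT its log2 fold change was 1.02 in ALG6-/- cells (limma adjusted p = 7.3e-07), -0.52 in ALG6/UGGT1-/- cells (0.000625) and 1.62 in ALG6/UGGT1/UGGT2-/- cells (4.21e-08). In ALG6-/- against WT cells the origin recognition subunits ORC4 and ORC5 had log2 fold changes of -1.35 and -1.72, the polymerase epsilon subunit POLE2 -1.20 and E2F4 -0.64, and CHAF1B, a subunit of the chromatin assembly factor, was at 0.57; all 5 were called. ORC4 was not called there after the length and GC correction (-0.43), and E2F4 not with median ratio rescaling (-0.19).

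Mitotic genes are transcribed later in the cycle. Of 26 such genes, 7 were higher (26.9%, beside 15.1% of all genes) and 9 lower (34.6%, beside 45.7%) in ALG6-/- against WT cells. Median ratio rescaling gave 11 and 4 (27.2% and 25% of all genes), and the length and GC correction 15 and 1 (32.6% and 29%). In ALG6/UGGT1-/- against WT cells none was higher by the adjusted limma test (1 at an unadjusted p under 0.05), beside 10.3% of all genes. In that comparison 8 were lower (30.8%, beside 13.8% of all genes), with a median of -0.20. Under the same settings 8 (30.8%, beside 8.15% of all genes) and 14 (53.8%, beside 17.8%) were lower. In ALG6/UGGT2-/- cells 2 were higher (7.69%, beside 6.14% of all genes) and 3 lower (11.5%, beside 7.75%). The same settings gave 1 and 2 (3.34% and 3.48% of all genes) and 2 and 7 (12.7% and 11.4%). In ALG6/UGGT1/UGGT2-/- cells 5 were higher (19.2%, beside 13.5% of all genes) and 4 lower (15.4%, beside 22%). There the same settings gave 9 and 1 (13.3% and 14.8% of all genes) and 12 and 3 (25.9% and 22.9%). CCNB1, which encodes cyclin B1, was at 150.4 ± 9.99 CPM in ALG6-/- cells, 61.3 ± 8.79 in ALG6/UGGT1-/-, 45.4 ± 0.202 in ALG6/UGGT2-/- and 119 ± 5.46 CPM in ALG6/UGGT1/UGGT2-/- cells, against 79.7 ± 2.60 CPM in WT cells (SD, n = 3 each). Its log2 fold change against WT was 0.91, -0.39, -0.81 and 0.58 in these lines in that order, and all 4 were called. The kinesin KIF20A had log2 fold changes against WT of 1.08 in ALG6-/-, -1.08 in ALG6/UGGT1-/- and 0.59 in ALG6/UGGT1/UGGT2-/- cells, all called, and the kinase PLK1 of 0.63, -0.76 and -0.33. UBE2C, a ubiquitin-conjugating enzyme that works with the anaphase-promoting complex, had 0.22 in ALG6-/- cells and -0.73 in ALG6/UGGT1-/-, -0.69 in ALG6/UGGT2-/- and -0.46 in ALG6/UGGT1/UGGT2-/- cells, also all called. In ALG6/UGGT2-/- against WT cells the 3 lower genes were CCNB1, UBE2C and the kinase AURKB and the 2 higher genes were CCNB2, which encodes cyclin B2, and the kinase CDK1, and the median over the 26 genes was 0.0055; AURKB, CCNB2 and CDK1 are named after their values were seen.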

How the data were processed

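Poly(A) mRNA of 5 HEK293-EBNA1-6E lines was sequenced in 15 libraries (3 per line), each run in 4 lanes, which GEO lists as 60 samples and the table holds combined. The authors made directional NEBNext libraries, sequenced read pairs, used STAR for alignment to hg38, estimated abundance with RSEM and normalized it with edgeR. The deposited values are therefore CPM made by the authors from estimated reads, and each library sums to 1000000 CPM. Tool versions are not given in the sources used here. Of 42141 rows, 15877 are at 0 throughout, 28 carry names turned into dates, and 8 columns without a header, holding 2 stray values, were not used. The spacing of low values put 1 CPM at 23.6 to 27.2 reads, which sets the depth of each library. Since 90.4 to 91.1% of values were whole reads within 0.02, no count test was run. Depth limits the precision of CCNE2 most.

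Here CPM was tested with limma 3.58.1 in R 4.3.3 on log2(CPM + 0.5) over 14692 genes that reached 1 CPM in 3 or more libraries, with the line as the only factor, a variance trend and 10 residual degrees of freedom. Fold changes on this scale understate the change of low genes. P-values were adjusted by Benjamini-Hochberg over all genes. An exact permutation test of 3 against 3 cannot give a two-sided p below 0.1 and was not used. Length and GC content came from GENCODE 44 canonical transcripts (13353 of the genes tested, 90.9%, and all 39 members), entered as natural splines with 5 degrees of freedom each. CPM per kb divides by that length. The fit was tested on simulated data. Values and figures used Python 3.11.15, pandas 2.3.3, NumPy 2.4.6 and Matplotlib 3.10.9.

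The members and gene lists were chosen with earlier results of these data known, which also holds for the length and GC correction and the fit without ALG6-/- replicate 2 and WT replicate 3. Values per library are given for the 3 members of each role with the smallest F test p, and up to 6 pathway and 4 mitotic genes were named by the same p. The main fit did not treat replicate numbers as pairs. Over 30 same-numbered pairs of lines, deviations from the line means correlated at over 0.1 in 14, between -0.75 and 0.745. The shift shared by some libraries enters these values, so they cannot show whether same-numbered cultures were prepared together. Alternatives tried were 0.1 and 2 as pseudocounts, fitting without the filter or with a mean of at least 5 CPM, median ratio rescaling, quantile normalization, the length and GC correction, a block for replicate number, fitting the 2 lines of a comparison alone, and leaving out each library.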

Additional observations from a re-analysis of the deposited data

How the results depend on the processing

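Of the 39 genes, the counts called against WT were moved by more than 1.5 times in these cases. Median ratio rescaling gave 15 higher and 5 lower in ALG6-/- cells (8 and 15 with the deposited CPM), 1 higher in ALG6/UGGT1-/- cells (6) and 0 lower in ALG6/UGGT1/UGGT2-/- cells (2). The length and GC correction gave 18 higher in ALG6-/-, 13 higher in ALG6/UGGT2-/- (6) and 0 lower in ALG6/UGGT1/UGGT2-/- cells. A fit of only the lines compared gave 8 lower in ALG6-/- and 5 lower in ALG6/UGGT1/UGGT2-/- cells, no filter 0 lower and quantile normalization 1 lower in ALG6/UGGT1/UGGT2-/- cells, and the fit without both ALG6-/- replicate 2 and WT replicate 3 gave 11 higher in ALG6/UGGT2-/- cells. Against ALG6-/- cells, median ratio rescaling gave 11 higher in ALG6/UGGT1-/- cells (22), 10 in ALG6/UGGT2-/- cells (22) and 9 in ALG6/UGGT1/UGGT2-/- cells (26) and 11 lower in ALG6/UGGT2-/- (5) and 7 in ALG6/UGGT1/UGGT2-/- cells (3). Quantile normalization gave 14 higher in ALG6/UGGT1-/- and 5 lower in ALG6/UGGT1/UGGT2-/- cells. The length and GC correction gave 11 higher and 18 lower in ALG6/UGGT1-/- (11 lower with the deposited CPM), 13 higher and 14 lower in ALG6/UGGT2-/-, and 6 lower in ALG6/UGGT1/UGGT2-/- cells, and a fit of only the lines compared gave 14 higher and 3 lower in ALG6/UGGT2-/- cells. With 1 library left out, the lower count in ALG6/UGGT1/UGGT2-/- against WT cells ranged from 0 to 3 and that in ALG6/UGGT2-/- against ALG6-/- cells from 3 to 8. Pseudocounts of 0.1 and 2 and a mean of at least 5 CPM moved no count by that much.

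Among the 15 genes with values per library, signs of differences called with the deposited CPM turned as follows. With median ratio rescaling, MCM3 was at 0.057 and TYMS at 0.0034 in ALG6-/- against WT cells, MCM5 at -0.12 and TK1 at -0.083 in ALG6/UGGT2-/- against ALG6-/- cells, TYMS at -0.20 in ALG6/UGGT1-/- against ALG6-/- cells, and CDC45 at -0.17 and TYMS at -0.025 in ALG6/UGGT1/UGGT2-/- against ALG6-/- cells. With quantile normalization, GINS4 was at -0.062 in ALG6/UGGT1-/- and CCNE2 at -0.11 in ALG6/UGGT2-/- against ALG6-/- cells. With the length and GC correction, CCNE2 was at -0.10 in ALG6/UGGT1-/- and -0.24 in ALG6/UGGT2-/- cells (limma adjusted p = 0.0163) and RRM2 at -0.22 in ALG6/UGGT1/UGGT2-/- cells, all against ALG6-/- cells. Of differences not called with the deposited CPM, CCNE2 in ALG6-/- against WT cells turned to 0.24 with quantile normalization and to 0.21, called higher, with the length and GC correction, and CDC45 in ALG6/UGGT2-/- against ALG6-/- cells (0.06) turned to -0.40 with median ratio rescaling and -0.13 with the length and GC correction, both called lower. The cause was not tested. The replicate block gave 9 higher and 14 lower genes in ALG6-/- against WT cells and changed no call of the 15 genes. With 1 library left out, 10 of the 71 calls of these genes were lost at least once, and 7 comparisons not called passed at least once.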
